A study of Homo sapiens with 18 samples.

Results

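The genes of the EGFR family signalling axis were examined in U87 cells, an established human glioblastoma line, before and after treatment with Erastin, a small molecule that blocks cystine import through system Xc- and leads to ferroptosis. The 10 genes were chosen by name from 58302 genes in the table: 3 receptors (EGFR, ERBB2 and ERBB3), 6 ligands (HBEGF, EREG, AREG, TGFA, BTC and NRG1) and ERRFI1, an inhibitor of the receptors. Their RNA was measured by RNA-seq in 4 libraries, 2 of control cells kept in normal growth condition without Erastin and 2 of cells given 10 μM Erastin for 72 h. Both groups were the same parental line, with no genetic change named in the labels, so the results describe 1 cell line at 1 dose and 1 time. Nothing in the labels says whether the libraries of a group came from separate cultures, so the p-values measure the spread between these libraries, which may be technical.

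EGFR, ERBB2 and ERBB3 are receptors that pair with each other on the cell surface when a ligand binds, and they pass the signal on through the RAS to ERK and the PI3K to AKT routes. Their ligands are made as membrane-bound precursors that proteases of the ADAM family cut free. EREG, AREG, HBEGF, TGFA and BTC bind EGFR, NRG1 binds ERBB3, and ERBB2 has no known ligand of its own. The EGFR gene is often amplified or rearranged in glioblastoma.

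The libraries held 29412656 to 31513519 counts, and 23519 to 23990 genes had a count in each. Of the astroglial and glioma markers, VIM and CD44 were abundant, whereas AQP4 was listed at 0 in all 4 libraries and S100B and SOX2 at no more than 6 counts in any. The summed level of these 11 markers was 4210 to 4250 CPM (counts scaled to the size of the library) in control and 2730 to 2920 CPM in Erastin libraries, and 6 of the 8 tested were lower in Erastin, where 23.7% of all genes tested were lower. Of the epithelial markers, 4 of 7, CDH1, KRT5, KRT14 and KRT18, were listed at 0, and the 7 summed to 0.223 to 0.676 CPM. The 4 immune markers summed to 0.612 to 0.732 CPM. Neuronal markers summed to 52.6 and 57.4 CPM in control and 12.9 CPM in both Erastin libraries, and endothelial markers to 4.64 and 6.18 CPM against 1.64 and 2.07 CPM. Of the endothelial markers, PECAM1 fell from 138 and 188 to 31 and 33 counts (adjusted p = 4.81e-05, edgeR), while VWF rose from 4 and 4 to 17 and 32 counts (adjusted p = 0.0125, edgeR). The mitochondrial share of counts was 7.85% and 7.23% in control and 2.80% and 3.54% in Erastin libraries. The part of these shifts in the results that follow was not tested. In bulk RNA, fewer cells that express a gene and less RNA per cell cannot be told apart.

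The promoters of 4 genes are shown because their genes carry the main contrasts: EREG, the ligand gene that rose with the smallest adjusted p, AREG, its neighbour on chromosome 4 without a count, and HBEGF and ERRFI1, which fell. Each run holds the 250 bases before the RefSeq start on GRCh38.p14, read 5′ to 3′ on the strand of the gene. Capitals mark a match to 1 of 5 searched motifs.
EREG, chr4:74364895-74365144, plus strand: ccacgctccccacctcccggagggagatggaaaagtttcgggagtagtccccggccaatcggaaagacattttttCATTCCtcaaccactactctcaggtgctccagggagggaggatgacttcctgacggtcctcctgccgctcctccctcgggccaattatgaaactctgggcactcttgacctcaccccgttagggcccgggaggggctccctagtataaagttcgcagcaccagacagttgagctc
AREG, chr4:74444886-74445135, plus strand: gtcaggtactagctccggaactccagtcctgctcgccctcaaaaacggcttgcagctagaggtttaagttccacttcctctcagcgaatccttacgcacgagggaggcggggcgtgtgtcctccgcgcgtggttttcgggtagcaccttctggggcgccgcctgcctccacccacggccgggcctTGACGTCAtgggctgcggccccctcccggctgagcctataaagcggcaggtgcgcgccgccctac
HBEGF, chr5:140346604-140346853, minus strand: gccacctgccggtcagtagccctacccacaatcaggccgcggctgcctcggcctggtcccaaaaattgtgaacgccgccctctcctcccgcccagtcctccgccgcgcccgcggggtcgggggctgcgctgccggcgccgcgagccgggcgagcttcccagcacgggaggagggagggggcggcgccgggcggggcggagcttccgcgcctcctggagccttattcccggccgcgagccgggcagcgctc
ERRFI1, chr1:8026310-8026559, minus strand: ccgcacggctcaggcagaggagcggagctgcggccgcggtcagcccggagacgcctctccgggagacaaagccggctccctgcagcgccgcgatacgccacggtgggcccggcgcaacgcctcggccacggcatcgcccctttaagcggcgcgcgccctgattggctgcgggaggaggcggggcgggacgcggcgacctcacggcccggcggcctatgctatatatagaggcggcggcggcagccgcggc

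The motifs were searched on both strands over the 250-base windows of 35116 promoters. TGANTCA (AP-1) was found in 6.57% of them, TGACNNNGC (the antioxidant response element) in 10.9%, TGACGTCA (CRE) in 1.65%, TGATGNAAT (the C/EBP-ATF element) in 0.888% and GGAATG (TEAD) in 11.9%. The EREG window held GGAATG on the opposite strand, read as CATTCC, 175 bases before the start. The AREG window held TGACGTCA 65 bases before the start. No match lay in the windows of HBEGF, ERRFI1, BTC, TGFA or the first start of EGFR. The ERBB2 window held TGATTCA 222 bases before the start, and the window of a second EGFR start held TGAGTCA and TGACTCA and 1 CATTCC. Of the 10 genes, 8 had an entry in the promoter table, and ERBB3 and NRG1 had none. The letters of TGACGTCA can overlap those of TGACNNNGC, but the printed windows held at most 1 match each. A match describes the letters in the window and is no evidence of binding.

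Of the 10 genes, 8 had enough counts to be tested with edgeR's quasi-likelihood test, with Benjamini-Hochberg adjustment over all 16751 genes tested. EREG and BTC rose after Erastin, and HBEGF, NRG1 and ERRFI1 fell, by an adjusted p under 0.05. EGFR, ERBB2 and TGFA did not pass. The 5 that passed were 62.5% of the 8 tested, beside 47.0% of all genes tested. The 2 that rose stood beside 23.2% of all genes and the 3 that fell beside 23.7%. None of the 8 changed by a log2 fold change of 1 or more in size with edgeR, nor with DESeq2, while 7 of the 8 had an unadjusted p under 0.05, beside 53.1% of all genes, and 6.24% of all genes passed both thresholds upward and 9.34% downward. The Erastin libraries both lay above both controls for 3 of the 8 (36.7% of all genes) and both below for 5 (36.9% of all genes). The median log2 fold change of the 8 was -0.27, and that of all genes tested was close to 0 (-0.0026).

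**Figure D1:**
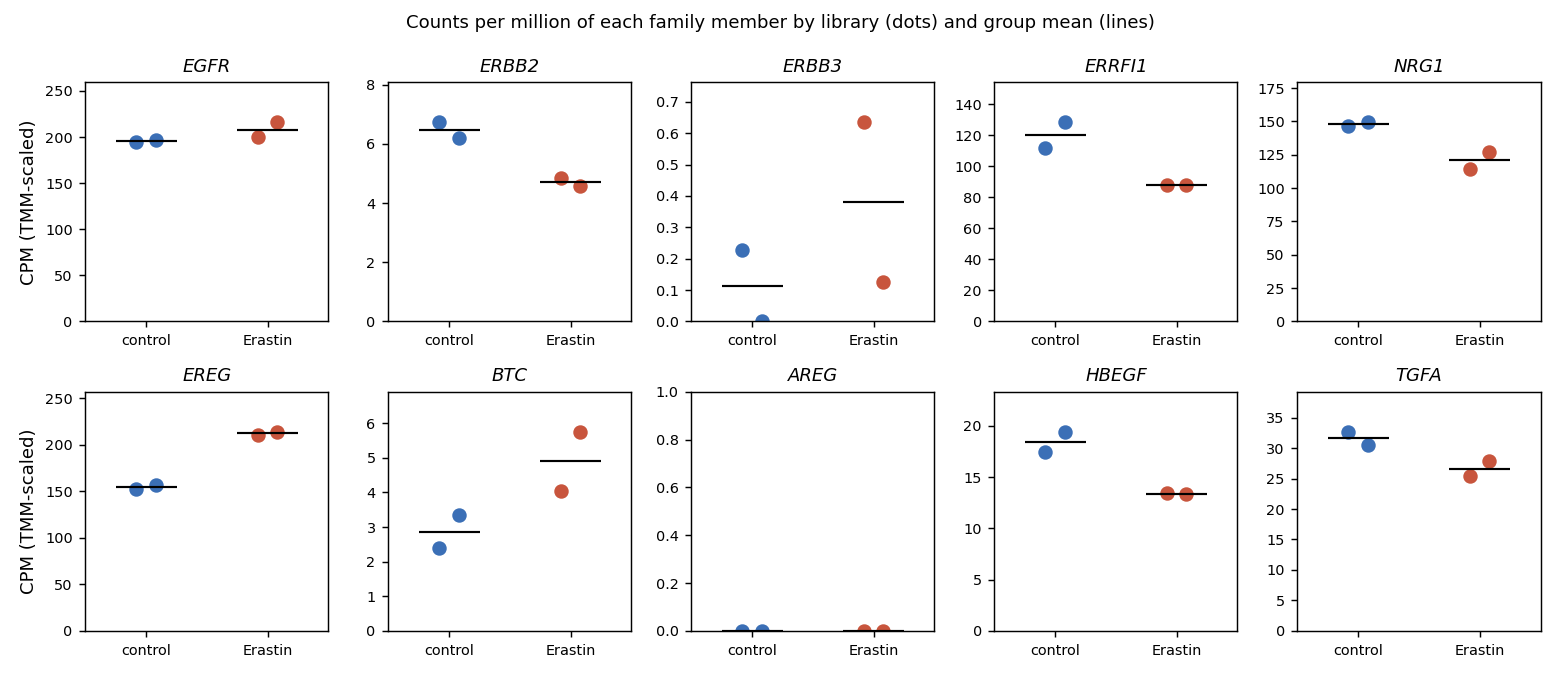
CPM (TMM-scaled, linear axis from 0, scale set for each gene) of the 10 genes in the 2 control (blue) and 2 Erastin (red) libraries, with a line at each group mean. The libraries of the 2 groups did not overlap for 8 genes, 3 of them higher in Erastin (EGFR, EREG and BTC; 36.7% of all genes tested) and 5 lower (36.9%), and AREG was at 0 in all 4.

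**Figure D2:**
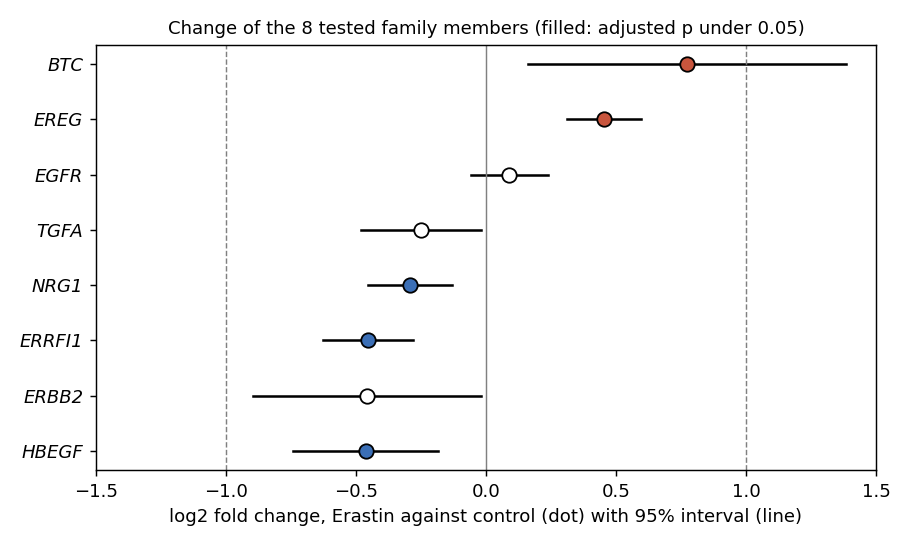
Log2 fold change (dot) of the 8 tested genes, Erastin against control, with its 95% interval (line), where filled dots passed an adjusted p under 0.05 and dashed lines mark a log2 fold change of 1 in size. All 8 estimates lay between -0.46 and 0.77.

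EGFR, the receptor for most of these ligands, lies on chromosome 7 from 55019021 to 55211628 on the plus strand (GRCh38) and was the most abundant receptor. It had 194 and 197 CPM in the control libraries and 200 and 216 CPM in the Erastin libraries. The Erastin libraries lay just above the control ones, without overlap. Its log2 fold change was 0.09 (SE 0.0679), with a 95% interval from -0.06 to 0.24 and an adjusted p of 0.309 (edgeR). A change of EGFR transcript beyond 0.24 on the log2 scale is outside that interval.

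ERBB2, the receptor that partners the others, lies on chromosome 17 from 39687914 to 39730426 on the plus strand. It had 6.74 and 6.21 CPM in control and 4.85 and 4.58 CPM in Erastin libraries. The Erastin values were the lower ones and the groups did not overlap. The log2 fold change was -0.46 (SE 0.200, 95% interval -0.89 to -0.02), with an adjusted p of 0.0809 (edgeR), so it missed the threshold. The counting was unstranded and PGAP3 and MIEN1 share 194 and 571 bases with ERBB2 exons on the opposite strand, where reads cannot be assigned. MIEN1 had 848 and 798 counts in control and 1308 and 1352 in Erastin libraries.

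ERBB3, the partner receptor that binds neuregulins, lies on chromosome 12 from 56079857 to 56103505 on the plus strand and was left out of the test by the low-count filter. Its counts were 7 and 0 in control and 19 and 4 in Erastin libraries, which overlap. The exact 95% Poisson intervals of these counts were 2.81 to 14.4, 0 to 3.69, 11.4 to 29.7 and 1.09 to 10.2, covering counting error only. The intervals of the 2 Erastin libraries do not overlap each other, so these differed by more than counting error. With no low-count filter the log2 fold change was 1.70 with an adjusted p of 0.300 (edgeR), and with DESeq2 it was 1.74 with an adjusted p of 0.454.

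EREG, or epiregulin, a ligand of EGFR and ERBB4, lies on chromosome 4 from 74365143 to 74388751 on the plus strand and was the most abundant ligand. It had 153 and 157 CPM in control and 210 and 214 CPM in Erastin libraries. Both Erastin libraries stood above both controls, with an SD of 2.48 CPM between them. EREG rose 1.37-fold, a log2 fold change of 0.46 (SE 0.0648, 95% interval 0.31 to 0.60), with an adjusted p of 1.20e-04 (edgeR).

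BTC, or betacellulin, a ligand of EGFR and ERBB4, lies on chromosome 4 from 74744759 to 74794686 on the minus strand. It had 73 and 104 counts in control and 121 and 181 in Erastin libraries, or 2.39 and 3.35 CPM against 4.05 and 5.76 CPM. The groups did not overlap, but the libraries of each group spread widely. BTC rose 1.71-fold, a log2 fold change of 0.77 (SE 0.279, 95% interval 0.16 to 1.38), with an adjusted p of 0.0389 (edgeR). The call ended with DESeq2 (adjusted p = 0.089), without control replicate 1 (log2 fold change 0.55, adjusted p = 0.130) and without Erastin replicate 2 (0.50, adjusted p = 0.257), and over all 11 alternatives the adjusted p ranged from 0.00410 to 0.257.

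AREG, or amphiregulin, a ligand of EGFR, lies 56.4 kb from EREG on the same strand, at 74445134 to 74455009. It had 0 counts in all 4 libraries, which allows up to 0.0952 to 0.102 CPM per library. None of its 1468 words of 31 bases recurred elsewhere in the genome. The 3 EGFR ligand genes of this stretch of chromosome 4 thus had levels in control cells of 27.1 (EREG), 1.02 (BTC) and 0 (AREG) CPM per kilobase of exon. EPGN, the fourth ligand gene there, had 12 and 0 counts in control and 4 and 15 in Erastin libraries.

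HBEGF, the heparin-binding ligand of EGFR and ERBB4, lies on chromosome 5 from 140332843 to 140346631 on the minus strand. It had 17.5 and 19.4 CPM in control and 13.4 CPM in both Erastin libraries. Both Erastin libraries lay below both controls. HBEGF fell to 0.726 of the control level, a log2 fold change of -0.46 (SE 0.128, 95% interval -0.74 to -0.18), with an adjusted p of 0.0107 (edgeR). Without Erastin replicate 1 the log2 fold change was -0.46 again but the adjusted p was 0.0515, the highest of its alternatives (lowest 0.00379).

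NRG1, a neuregulin that binds ERBB3 and ERBB4, lies on chromosome 8 from 31639386 to 32767959 on the plus strand and was the second most abundant ligand per length. It had 146 and 149 CPM in control and 114 and 127 CPM in Erastin libraries. The Erastin libraries were lower and spread more than the controls. NRG1 fell to 0.816 of the control level, a log2 fold change of -0.29 (SE 0.0734, 95% interval -0.45 to -0.13), with an adjusted p of 0.00621 (edgeR). Without Erastin replicate 1 it was -0.22 with an adjusted p of 0.109, the highest of its alternatives (lowest 4.19e-04).

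TGFA, a ligand of EGFR, lies on chromosome 2 from 70447280 to 70554193 on the minus strand. It had 32.7 and 30.6 CPM in control and 25.4 and 27.8 CPM in Erastin libraries. The groups did not overlap, but the difference did not pass the test. The log2 fold change was -0.25 (SE 0.106, 95% interval -0.48 to -0.02), with an adjusted p of 0.0734 (edgeR).

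ERRFI1, also called MIG6, binds the EGFR kinase domain, inhibits it and is itself induced by EGFR signalling in many cells. It lies on chromosome 1 from 8004404 to 8026308 on the minus strand. It had 112 and 128 CPM in control and 87.7 and 87.6 CPM in Erastin libraries. Both Erastin libraries lay below both controls and were almost equal. ERRFI1 fell to 0.730 of the control level, a log2 fold change of -0.45 (SE 0.0789, 95% interval -0.63 to -0.28), with an adjusted p of 5.40e-04 (edgeR). A gene on the opposite strand, ENSG00000284747, shares 155 bases with its exons and had 18 and 24 counts in control and 37 and 69 in Erastin libraries.

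Levels of different genes were compared as CPM per kilobase of exon. In control cells the order was ERRFI1 (28.7 ± 2.79, SD, n = 2), EREG (27.1 ± 0.536), EGFR (15.6 ± 0.129), NRG1 (13.1 ± 0.192), TGFA (6.37 ± 0.307), HBEGF (6.12 ± 0.456), BTC (1.02 ± 0.241), ERBB2 (0.627 ± 0.0359), ERBB3 (0.0132 ± 0.0187) and AREG (0). ERRFI1 and EREG overlapped, as did TGFA and HBEGF, and ERBB3 and AREG, and the other neighbours in this order did not. After Erastin, EREG came first at 37.1 ± 0.434 and ERRFI1 second at 20.9 ± 0.00707, and the values of no neighbours overlapped. The other genes kept their places, with EGFR at 16.6, NRG1 at 10.7, TGFA at 5.36, HBEGF at 4.44, BTC at 1.74, ERBB2 at 0.457 and ERBB3 at 0.0440 CPM per kilobase. ERBB3 and AREG cannot be ordered after Erastin, where ERBB3 was at 0.0734 and 0.0147 CPM per kilobase. The count of 0 for AREG allows up to 0.0619 and 0.0589 in the same libraries.

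EREG took a larger share of the ligand transcripts in the Erastin libraries. EREG was 50.5% and 50.4% of the summed ligand level per kilobase in control and 63.6% and 61.6% in Erastin libraries. NRG1 went from 24.4% and 24.2% to 17.4% and 18.5%, HBEGF from 11.0% and 11.8% to 7.67% and 7.31%, and TGFA from 12.5% and 11.3% to 8.84% and 9.23%. BTC made up 1.60% and 2.18% against 2.48% and 3.37%. The sum itself was 52.9 and 54.4 in control and 57.9 and 60.8 CPM per kilobase in Erastin libraries. The ratio of EREG to HBEGF was 4.61 and 4.26 in control and 8.29 and 8.43 in Erastin libraries, the ratio of ERRFI1 to EGFR 1.72 and 1.95 against 1.31 and 1.21, and the ratio of EGFR to ERBB2 23.8 and 26.1 against 33.9 and 38.9. With 2 libraries a group, the smallest two-sided p of an exact permutation test is 0.333, so these shares and ratios are descriptions.

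**Figure D3:**
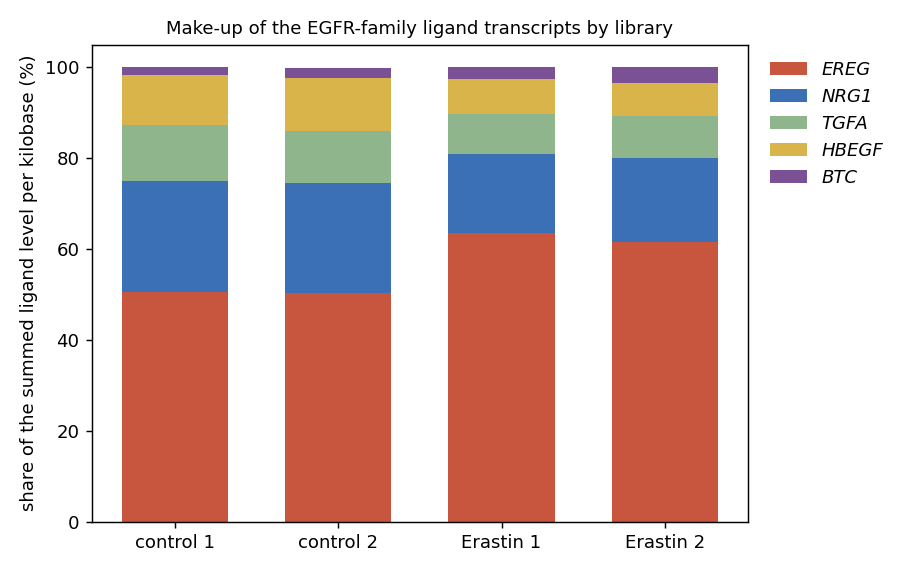
Share (%) of the summed ligand level, in CPM per kilobase of exon, taken by each of 5 ligand genes in each library (AREG was at 0). EREG took 50.4% to 50.5% in the control and 61.6% to 63.6% in the Erastin libraries.

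The rest of the family held 6 further genes. NRG2, another neuregulin, had 461 and 458 counts in control and 186 and 153 in Erastin libraries, all below the controls. NRG2 was downregulated, with a log2 fold change of -1.43 (SE 0.170) and an adjusted p of 2.89e-05 (edgeR). EGF, the founding ligand of EGFR, had 81 and 78 counts against 45 and 36. EGF fell by 0.96 on the log2 scale (SE 0.335), with an adjusted p of 0.0340 (edgeR), and of 0.115 with DESeq2. NRG4 had 10 and 26 counts against 2 and 10 (adjusted p = 0.155, edgeR), and EPGN did not pass (adjusted p = 0.682). ERBB4 and NRG3 had at most 4 counts in any library and were not tested.

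Ligand shedding was represented by 13 genes, all tested. They include TIMP3, a metalloprotease inhibitor, so the counts of this group give no direction of shedding itself. With edgeR 7 fell (53.8%, beside 23.7% of all genes) and none rose (beside 23.2% of all genes), with none at an unadjusted p under 0.05 upward and none by DESeq2. The median log2 fold change was -0.53, beside a median near 0 for all genes. The other 6 did not pass. Among these was ADAM17, named after its values were seen, with a log2 fold change of 0.18 (SE 0.0864, adjusted p = 0.105, edgeR). ADAM10, named likewise, was among the 7 that fell, with -0.66 (SE 0.0655, adjusted p = 6.27e-06, edgeR). ADAM8, a metalloprotease, had 975 and 846 counts in control and 95 and 97 in Erastin libraries, a log2 fold change of -3.24 (SE 0.150, adjusted p = 1.20e-08, edgeR). ADAM12, which can cut HBEGF, had 7620 and 7736 counts against 3431 and 3601, a log2 fold change of -1.12 (SE 0.0648, adjusted p = 7.38e-08, edgeR).

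Receptor attenuation, a group of genes linked to the ubiquitination, sorting or restraint of these receptors, had 18 of 19 tested. Its members need not all act on the receptors in the same direction, so their counts give no direction of attenuation. Of the 18, 7 rose and 4 fell (edgeR), with a median log2 fold change of 0.02. These were 38.9% higher and 22.2% lower, beside 23.2% and 23.7% of all genes, so the share lower was near that of all genes. LRIG3, a transmembrane protein of the LRIG family, had 215 and 314 counts in control and 66 and 84 in Erastin libraries, a log2 fold change of -1.81 (SE 0.245, adjusted p = 8.14e-05, edgeR). LRIG3 was the only gene of the group past both thresholds. Of the 7 that rose, RNF41, named after its values were seen, changed most. RNF41 had 1767 and 1725 counts against 3301 and 3507, a log2 fold change of 0.97 (SE 0.0712, adjusted p = 5.40e-07, edgeR). The signal relay genes from GRB2 through RAS, RAF and ERK to PI3K and AKT had 28 of 30 tested, of which 8 rose and 6 fell (edgeR), with a median log2 fold change of 0.03. These were 28.6% higher and 21.4% lower, near the 23.2% and 23.7% of all genes. Without the genes on alternate scaffolds, an alternative chosen after seeing the data, 8 were higher and 5 lower. The number higher was 3 without control replicate 2, 3 without Erastin replicate 1 and 2 without Erastin replicate 2, while 5 to 6 were lower with a library left out. HRAS, a RAS GTPase chosen after its values were seen, had 908 and 39 counts in control and 287 and 680 in Erastin libraries, which overlap. All its words of 31 bases also lie on alternate scaffolds of the genome and the counting left out reads with more than 1 place, so its value is uncertain.

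Genes that ERK signalling is known to induce or that feed back on it moved mostly downward. Of the 17 tested, 12 fell (70.6%, beside 23.7% of all genes) and 1 rose (5.88%, beside 23.2%) with edgeR, and their median log2 fold change was -0.57. Because the members were chosen with results of these data known, the list was given no test of its own. FOS, an immediate early transcription factor, had 3161 and 3228 counts in control and 514 and 452 in Erastin libraries, a log2 fold change of -2.72 (SE 0.0972, adjusted p = 1.54e-09, edgeR). DUSP6, an ERK phosphatase, had 1750 and 1822 counts against 576 and 660, a log2 fold change of -1.52 (SE 0.0961, adjusted p = 1.50e-07, edgeR). The next largest falls were in EPHA2, an ephrin receptor, with a log2 fold change of -1.45 (SE 0.106, adjusted p = 5.17e-07, edgeR), and ETV4, an ETS transcription factor, with -1.38 (SE 0.129, adjusted p = 3.85e-06, edgeR). Both Erastin libraries lay below both controls for these 4 genes, which were picked by the size of their fall. The same held for 15 of all 17 tested, beside 36.9% of all genes. For the other 2 of the 17 they lay above, beside 36.7%. IER3, the gene that rose, had 71 and 74 counts against 141 and 119, and 97.7% of its words of 31 bases also lie on alternate scaffolds. CCND1, named after its values were seen, was the other gene above both controls, with 12774 and 11589 counts against 13493 and 13814. Its log2 fold change was 0.17 (SE 0.0704, adjusted p = 0.0651, edgeR), so it did not pass.

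**Figure D4:**
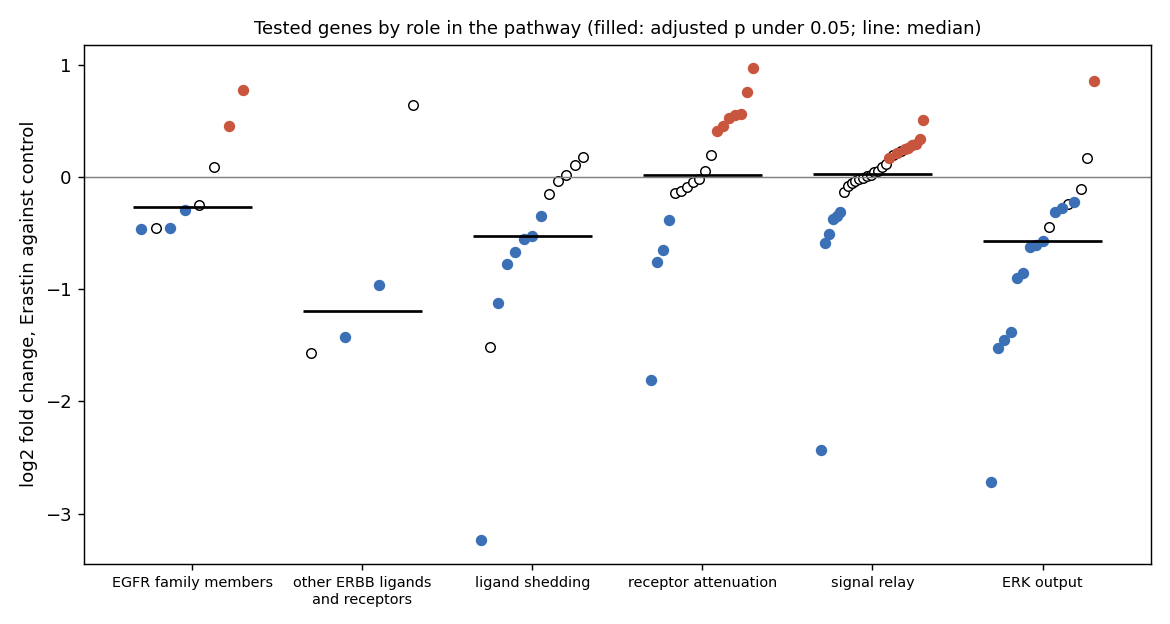
Log2 fold change (Erastin against control) of the tested genes of each group by role, with filled dots for an adjusted p under 0.05 (red higher, blue lower in Erastin), open dots for the rest and a line at the median. The medians were -0.53 for ligand shedding and -0.57 for ERK output, and 0.02 and 0.03 for receptor attenuation and signal relay.

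Genes near the 10 loci were described as well. Within 250 kb lay 153 genes, of which 73 were tested, with 26 higher (35.6%, beside 23.2% of all genes) and 11 lower (15.1%, beside 23.7%) in Erastin and a median log2 fold change of 0.14. Without Erastin replicate 1 the number lower was 7. The genes were unevenly spread over the loci. Near ERBB3 32 were tested, with 11 higher and 6 lower, and near ERBB2 10, with 7 higher and 1 lower. Each other locus had at most 2 higher and at most 3 lower. RNF41, named above under receptor attenuation, is also counted near ERBB3. Of the named neighbours, ADD2, which encodes a cytoskeletal adducin, lies 53.4 kb from TGFA. ADD2 had a log2 fold change of -1.56 (SE 0.150, adjusted p = 5.03e-06, edgeR). CDK2, a cell cycle kinase 107.1 kb from ERBB3, had -1.47 (SE 0.112, adjusted p = 7.33e-07). MMP19, a matrix metalloprotease 236.9 kb from ERBB3, had 1.41 (SE 0.103, adjusted p = 5.06e-07), and COQ10A, which takes part in coenzyme Q function, had 1.30 (SE 0.147, adjusted p = 1.89e-05). GRB7, an adaptor that binds ERBB2 and lies 7.5 kb from it, was chosen after its values were seen and had 195 and 142 counts in control and 12 and 6 in Erastin libraries, a log2 fold change of -4.20 (SE 0.399, adjusted p = 4.65e-06, edgeR).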

How the data were processed

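RNA of control and Erastin-treated U87 cells was sequenced by the authors, 2 libraries each. The authors aligned reads with HISAT2 2.1.0 to hg38, per the submitters' processing notes, and deposited raw counts per gene made with featureCounts (2.0.3 per the file header, 2.0.4 per the notes) and the Ensembl release 90 annotation, unstranded, leaving out reads on more than 1 gene or place. No deposited value had decimals, as estimated counts would. No normalization had been applied. Of 58302 genes, 57532 had a symbol.

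The analysis used edgeR 4.0.16 in R 4.3.3. Its filterByExpr (minimum count 10) kept 16751 genes, TMM factors were 0.971 to 1.02, and the groups were compared by the quasi-likelihood test. P-values were two-sided and Benjamini-Hochberg adjusted. Rose and fell mean an adjusted p under 0.05; up- and downregulated add a log2 fold change of 1 or more in either direction. Levels per kilobase used the exon length in the file. The test was tried on simulated data with fold changes larger than that of any tested member, so it does not cover effects of their size. Named genes were the 10 members, the 6 further family genes and, for each other group, at most 4 genes past both thresholds with a mean of at least 5 CPM, by size of change. Of these, 1 gene is not reported here. The members and lists were chosen with earlier results of these data known. Promoter sequences came from RefSeq (GRCh38.p14). Recurrence of 31-base words was searched in hg38 with its 261 alternate scaffolds.

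The labels number replicates without stating a shared batch. Deviations of same-numbered libraries correlated at 0.0203, so the main model held no block. Alternatives were DESeq2 1.42.0, RLE factors, library totals, other low-count filters, counts divided by 2 and rounded up, a replicate block, and each library left out. A fit with a library left out has no replicate in that group, so its p-values rest on the spread of the other group alone. The Poisson intervals and the limits for a count of 0 cover counting error only, since reads without molecular identifiers are not independent molecules. The intervals of fold changes come from the edgeR fit and include the spread between libraries. ChIP-seq and HiChIP samples were not analysed here.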

Additional observations from a re-analysis of the deposited data

How the results depend on the processing

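Over 11 alternatives, 83 of 88 values of the 8 tested genes kept their direction and their side of the threshold, 5 moved to the other side and 0 reversed. BTC was 0.78 with DESeq2 (adjusted p = 0.089). Leaving out each library in turn gave log2 fold changes of 0.50 to 1.03 for BTC, -0.54 to -0.39 for HBEGF, -0.37 to -0.22 for NRG1, 0.43 to 0.47 for EREG and -0.55 to -0.36 for ERRFI1. Of the 8 tested members, 1, EREG, rose and 3 fell with DESeq2. In some fits with a library left out ERBB3 entered the test as well, so no count of members is given for those fits. A replicate block changed no call of a member, with 2 higher and 3 lower, and 2 ERK output genes were then higher. The cause of these moves was not tested.

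Both thresholds left 0 members in either direction. The log2 fold change of BTC was 1.03 without control replicate 2 and 1.00 without Erastin replicate 1, where 1 group had no replicate left. In the lists both thresholds left 1 lower of the 4 other family genes tested and 2 lower of the 13 of ligand shedding. They left 0 higher and 1 lower of the 18 of receptor attenuation and of the 28 of signal relay. They left 0 higher and 4 lower of the 17 of ERK output, and 8 higher and 4 lower of the 73 tested neighbours. Of all genes tested, 6.24% passed both upward and 9.34% downward. Without the fold threshold, 3892 of all genes were higher and 3977 lower, against 1046 and 1564 with it. The other family genes had 1 lower with DESeq2 and 1 to 2 with a library left out. Ligand shedding had 1 higher with library totals. Signal relay had 2 to 8 higher with a library left out, and the neighbours 7 to 11 lower. ERK output had 0 higher with DESeq2 and, in an alternative chosen after seeing the data, without the genes on alternate scaffolds, 2 with library totals or no low-count filter, and 0 to 2 with a library left out. The count of 0 for AREG sets only the upper limit given for it, and ERBB3 had at most 19 counts in a library.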
